A study of Mus musculus with 8 samples.

Results

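The nuclear genes for subunits of respiratory complex III, respiratory complex IV and ATP synthase were followed in RNA from granulosa cells of the mouse ovary, the follicle cells that nurse the oocyte. Members were all gene names that begin with Uqcr, Cox4, Cox5, Cox6, Cox7, Cox8 or Atp5, and Cyc1, without the names that contain -ps, which mark pseudogenes. This gave 43 genes of 35087 named genes, of which 9 encode subunits of complex III, 18 of complex IV and 16 of ATP synthase. Granulosa cells were cut from ovary cryosections by laser microdissection, and their RNA was amplified with Smart-seq2, a method that keeps no strand information. The Hif1a-cKO group (n = 2 libraries) came from Hif1a flox/flox mice that carry Foxl2-CreERT2, a tamoxifen-inducible Cre driven from Foxl2, a gene of granulosa cells. The Hif1a-WT group (n = 6 libraries) came from Hif1a flox/flox mice without Cre. Both groups received tamoxifen at 100 mg/kg once a day over 5 days, starting at the age of 3 weeks, and ovaries were taken after a further 7 days. The genotype label calls the Hif1a-cKO group a knockdown, and each of the 8 descriptions gives a library name starting with cKO, although titles and genotypes call 6 of them WT. Groups here follow the titles. No label says which animal a library came from, so p-values measure the spread between these libraries only.

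Complex III passes electrons from ubiquinol to cytochrome c, complex IV passes them from cytochrome c to oxygen, and ATP synthase uses the proton gradient that the chain builds to make ATP. Each of these complexes joins subunits encoded in the nucleus, listed here, with a few encoded in the mitochondrial genome. Several nuclear subunits exist as isoforms, with one used in most tissues and others used in muscle, lung or testis. The transcription factor HIF1 is known to shift cells from respiration toward glycolysis and to change the isoform of a complex IV subunit when oxygen is low.

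The libraries held 2054584 and 651426 reads on named genes in Hif1a-cKO replicates 1 and 2 and from 1594803 to 4719293 in Hif1a-WT. Values are given as read counts scaled to library size (CPM, with TMM scaling), with the Hif1a-cKO values in the order of replicates 1 and 2. Hif1a itself had 22.3 and 13.7 CPM in Hif1a-cKO and from 35.5 to 106 CPM in Hif1a-WT, with no overlap (log2 fold change -1.84 ± 0.58, SE; edgeR adjusted p = 0.369). The libraries differed in more than genotype. Genes with at least 5 reads numbered 12847 and 12120 in Hif1a-cKO and from 13597 to 14727 in Hif1a-WT. The mitochondrial genome took 8.87% and 10.5% of reads in Hif1a-cKO and from 1.42% to 3.65% in Hif1a-WT. The summed level of 10 granulosa markers was 4399 and 1391 CPM in Hif1a-cKO. It was 2973, 7314, 18737, 58618, 38182 and 19782 CPM in Hif1a-WT replicates 1 to 6. Of these 10 markers, 9 were lower in Hif1a-cKO, where 52.7% of the 15102 genes tested were lower. An unadjusted p under 0.05 in edgeR with a lower level was found for 6 of them, against 8.89% of all genes. All 10 granulosa markers had reads in every library. The 9 oocyte markers summed to 52.3 and 27.3 CPM in Hif1a-cKO, with Dppa3 at 0 in both libraries. In Hif1a-WT replicates 1 to 6 they summed to 170, 520, 12.1, 18.4, 7.02 and 1811 CPM. All 9 had a log2 fold change below 0, although both Hif1a-cKO sums were above those of Hif1a-WT replicates 3, 4 and 5. The 6 stroma markers summed to 1154 and 281 CPM in Hif1a-cKO. In Hif1a-WT replicates 1 to 6 they summed to 875, 384, 244, 459, 573 and 16.1 CPM. All 6 had a log2 fold change above 0, with a median of 0.90. The stroma sum of Hif1a-cKO replicate 2 was nevertheless below those of Hif1a-WT replicates 1, 2, 4 and 5. Endothelial markers (5) summed to 234 and 236 CPM in Hif1a-cKO and from 71.4 to 363 CPM in Hif1a-WT, and muscle markers (5) to 266 and 112 CPM in Hif1a-cKO and from 8.95 to 162 CPM in Hif1a-WT. In each of these 5-marker lists 4 of 5 markers were higher in Hif1a-cKO, where 7145 of all 15102 genes tested were higher. The part of these differences in the results that follow was not tested, and fewer cells of a type and less RNA per cell cannot be told apart in such samples.

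Nearly all nuclear subunit genes had a lower mean level in Hif1a-cKO than in Hif1a-WT, in each of the complexes, and no gene passed the adjusted threshold in the edgeR quasi-likelihood test. Of the 43 members, 40 passed the filter on low counts and were tested. Their log2 fold change was below 0 in 39 of 40, against 52.7% of the 15102 genes tested. Among these 39 is Cox6a2, which had no read in Hif1a-cKO and passed the filter through Hif1a-WT reads only. An unadjusted p under 0.05 with a lower level was found for 17 of the 40, against 8.89% of all genes, and with a higher level for 0 of the 40, against 3.4% of all genes. The edgeR test called 0 of 15102 genes at an adjusted p under 0.05, and the smallest adjusted p among members was 0.369. DESeq2, run on the same counts, gave an adjusted p to 35 members and called 9 of them, all lower, against 3.42% of 6646 genes called lower. These were Uqcr10 in complex III, Cox5a, Cox7a2, Cox7a2l and Cox8a in complex IV, and Atp5a1, Atp5b, Atp5f1 and Atp5g3 in ATP synthase. In 4 members, Uqcr10, Cox5a, Cox8a and Atp5f1, both Hif1a-cKO libraries lay below all Hif1a-WT libraries, against 6.41% of all genes, and in 0 members did both lie above, against 6.02% of all genes. With 4 of 40, the members' share without overlap stands near that background, while the share with a low unadjusted p stands above it.

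Nearly all members shared their lowest library, but not their highest. Hif1a-cKO replicate 2, the shallowest library, had the lowest level of 36 of the 40 tested members. Cox6a2 had no read in either Hif1a-cKO library or in Hif1a-WT replicates 3 to 5. No other member had its lowest level in Hif1a-cKO replicate 1. The highest level was in Hif1a-WT replicate 2 for 20 members, in replicate 4 for 10, in replicate 5 for 5, in replicate 6 for 4 and in replicate 3 for 1. Hif1a-cKO replicate 1 was higher than Hif1a-WT replicate 1 in 35 of 40 members, so these 2 libraries were in the reverse order of the group means. It was higher than Hif1a-WT replicates 2 to 6 in 1, 14, 6, 8 and 4 members. Hif1a-cKO replicate 2 was higher than any single Hif1a-WT library in at most 2 of 40 members. Without Hif1a-cKO replicate 2, the log2 fold change was below 0 in 36 of 40 members, and 4 had an unadjusted p under 0.05 with a lower level in edgeR, against 3.5% of 16341 genes. The fold change of 24 of the 40 then moved by more than 1.5 times or turned, 23 of them toward or past 0. Without Hif1a-cKO replicate 1, it was below 0 in 40 of 40, and 33 had such a p, against 10.2% of 16609 genes, and 31 of the 40 moved by more than 1.5 times or turned. When the number of detected genes entered the fit as a covariate, 37 of 40 were still below 0, and 0 had an unadjusted p under 0.05 in edgeR, against 2.31% of all genes with a lower and 0.934% with a higher level. That number does not overlap between the groups, so its part and that of the genotype cannot be told apart.

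**Figure D1:**
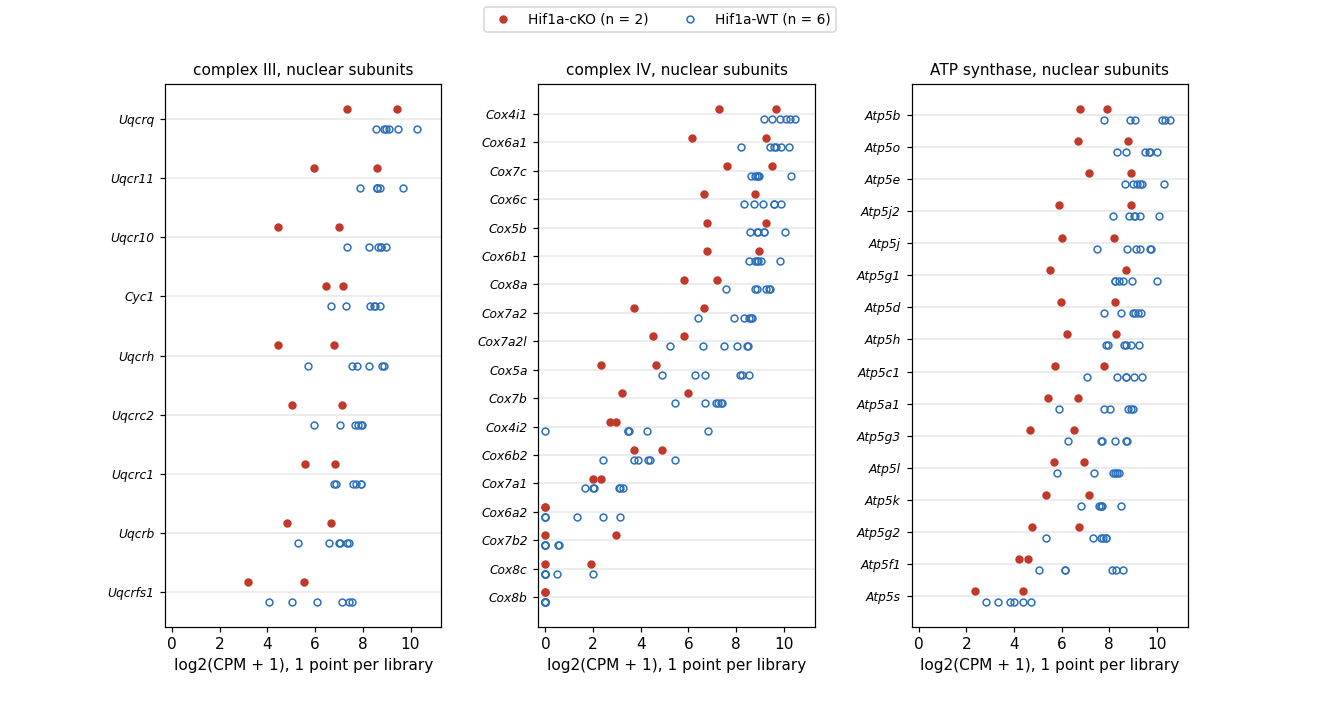
Level of each of the 43 members in each library as log2(CPM + 1), with filled points above for Hif1a-cKO (n = 2) and open points beneath for Hif1a-WT (n = 6), in a panel for each complex; genes are ordered by mean level. In most rows 1 filled point lies left of all open points and the other lies among the lower open points.

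The median log2 fold change was -1.21 over the 9 tested members of complex III, -1.21 over the 15 of complex IV and -1.40 over the 16 of ATP synthase, against -0.08 over all 15102 genes. The difference between complexes was not tested. With Cox6a2, which had no read in Hif1a-cKO, set at its limit of 3 reads over the group, the median of complex IV was -1.20. All 9 members of complex III were lower, 14 of 15 in complex IV and 16 of 16 in ATP synthase, and an unadjusted p under 0.05 in edgeR was found for 4, 5 and 8 of them. Leaving out Hif1a-cKO replicate 2 gave medians of -0.79 for complex III, -0.85 for complex IV and -0.77 for ATP synthase. The median over all genes in that fit was -0.34. Leaving out Hif1a-cKO replicate 1 gave -2.62, -2.74 and -3.02 in the same order, against -0.27 over all genes. With detected genes as a covariate they were -0.29, -0.55 and -0.55, against -0.26 over all genes, so that the median of complex III was then close to that of all genes.

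**Figure D2:**
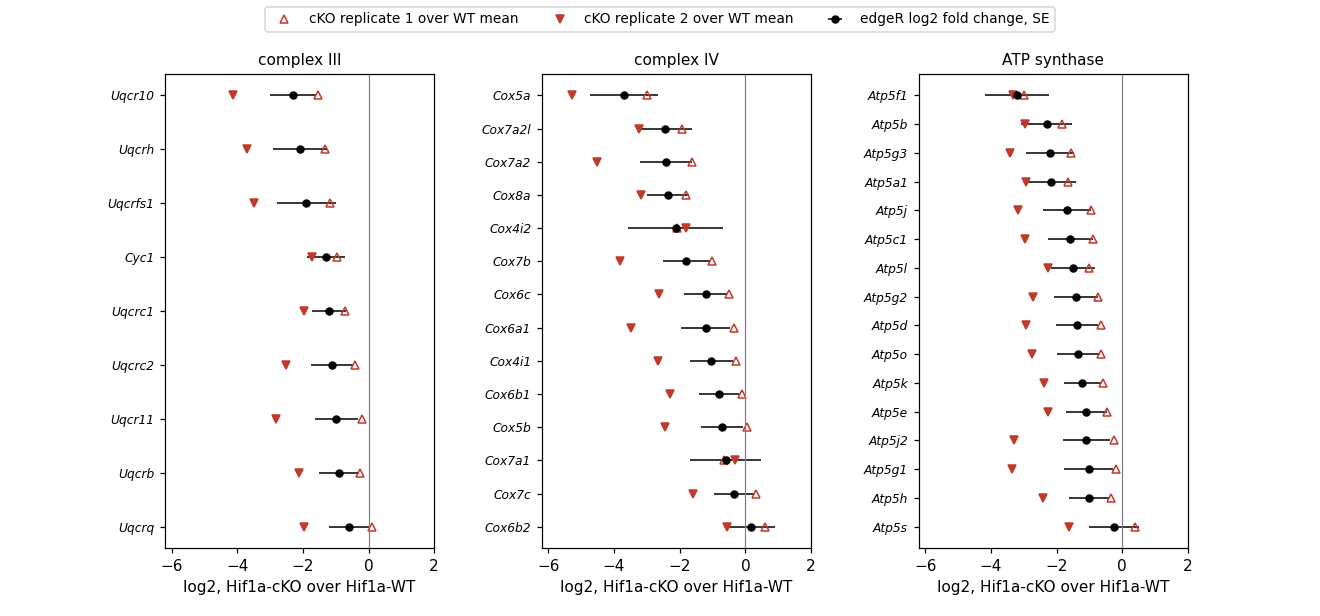
Log2 fold change of Hif1a-cKO over Hif1a-WT for the tested members of each complex, sorted within a panel; black points are the edgeR estimate with its SE, and triangles compare each Hif1a-cKO library alone with the Hif1a-WT mean. Cox6a2 is left out because it had no read in Hif1a-cKO. Filled triangles (replicate 2) lie left of open ones (replicate 1) in nearly every row.

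Read counts summed over each complex gave the same picture. The 9 complex III genes summed to 1842 and 463 CPM in Hif1a-cKO, and to 1147, 2913 and 3713 CPM as the lowest, median and highest Hif1a-WT library. The 18 complex IV genes summed to 4122 and 871 CPM in Hif1a-cKO, and to 2734, 5777 and 8081 CPM in Hif1a-WT. The 16 ATP synthase genes summed to 3793 and 908 CPM in Hif1a-cKO, and to 2670, 7723 and 8490 CPM in Hif1a-WT. As log2 ratios of the Hif1a-cKO mean over the Hif1a-WT mean these are -1.18, -1.15 and -1.48, and -1.24, -1.07 and -1.32 for summed TPM in place of CPM. In each complex Hif1a-cKO replicate 2 was below all Hif1a-WT libraries and Hif1a-cKO replicate 1 lay inside their range, so the groups overlapped. All 43 members together took 0.936% and 0.252% of reads in Hif1a-cKO and from 0.748% to 1.72% in Hif1a-WT.

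The balance between complexes within a library does not depend on how the library is scaled. The log2 ratio of the complex III sum over the ATP synthase sum was -1.04 and -0.97 in Hif1a-cKO and lay between -1.46 and -1.19 in Hif1a-WT, a mean of -1.01 ± 0.05 (SD, n = 2) in Hif1a-cKO and -1.32 ± 0.12 (SD, n = 6) in Hif1a-WT. Both Hif1a-cKO libraries were above all Hif1a-WT libraries. With summed TPM in place of CPM the gap nearly closed, as this ratio was -0.892 and -0.942 in Hif1a-cKO and lay between -1.07 and -0.949 in Hif1a-WT. The ratio of complex IV over ATP synthase was 0.12 and -0.06 in Hif1a-cKO and lay between -0.47 and 0.03 in Hif1a-WT, with overlap, while from summed TPM it was 0.277 and 0.174 in Hif1a-cKO and at most 0.172 in Hif1a-WT. For complex III over complex IV it was -1.16 and -0.91 in Hif1a-cKO and lay between -1.25 and -0.88 in Hif1a-WT, with overlap. No test was made of these ratios, since the members were chosen with earlier results of these data known.

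**Figure D3:**
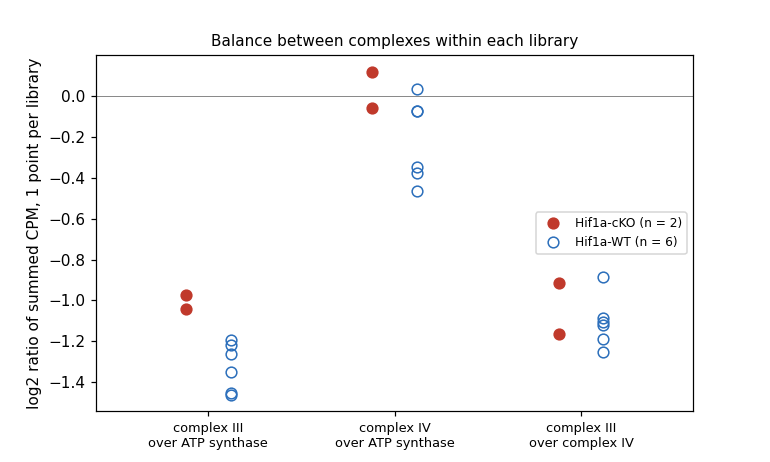
Log2 ratio of summed CPM between complexes within each library (vertical axis), with filled points for Hif1a-cKO and open points for Hif1a-WT. In the leftmost pair, complex III over ATP synthase, the Hif1a-cKO points at -1.04 and -0.97 lie above the open points, and in the other pairs the groups overlap.

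Promoters were read for the members because nearly all of them had a lower mean level in Hif1a-cKO. In addition, NRF1, the ETS factor GABP and YY1 are known to act at many respiratory chain promoters, and HIF1 at hypoxia response elements. RefSeq promoter windows (build GRCm38.p6, 250 bases before to 50 after the start) were found for 31 of the 43 members. Each motif was searched on both strands. The NRF1 consensus motif was in 8 of the 31 (25.8%), against 5.19% of 27025 genes with a window and 10.5% of the 11142 tested genes among them. It was in 6 of 13 ATP synthase genes, in 1 of 13 complex IV genes (Cox6a1) and in 1 of 5 complex III genes (Uqcrc1). The ETS motif CCGGAAG was in 10 of 31 (32.3%), against 9.93% of all genes with a window and 18.04% of the tested ones. The HIF motif ACGTG was in 9 of 31 (29.0%), against 21.8% and 27.7%. The YY1 consensus motif was in 0 of 31, against 0.755% and 1.62%, which says only that these letters are not in these windows. Below are the 250 bases before the start, from 5′ to 3′ on the strand of the gene, for Uqcrh (minus strand, chr4:116075071-116075320), a member with an ETS match and a low unadjusted p; for Cox6a1 (minus strand, chr5:115348959-115349208), which holds both NRF1 and ETS matches; for Cox5a (plus strand, chr9:57520982-57521231), the member with the lowest fold change among those with reads in both groups, which holds a HIF match; and for Atp5g3 (minus strand, chr2:73911327-73911576), which holds a HIF match on both strands, overlapping as CACGTG. Capitals mark the matches.
Uqcrh: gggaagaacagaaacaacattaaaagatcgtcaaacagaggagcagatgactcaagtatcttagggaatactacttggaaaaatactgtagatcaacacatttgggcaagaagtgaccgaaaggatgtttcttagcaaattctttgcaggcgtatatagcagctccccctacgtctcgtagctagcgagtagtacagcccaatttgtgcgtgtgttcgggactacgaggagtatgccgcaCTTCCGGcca
Cox6a1: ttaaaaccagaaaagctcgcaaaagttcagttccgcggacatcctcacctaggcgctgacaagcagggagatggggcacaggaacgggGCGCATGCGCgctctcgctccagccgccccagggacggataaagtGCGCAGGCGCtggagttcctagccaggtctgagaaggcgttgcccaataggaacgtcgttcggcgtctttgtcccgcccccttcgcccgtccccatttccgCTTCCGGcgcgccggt
Cox5a: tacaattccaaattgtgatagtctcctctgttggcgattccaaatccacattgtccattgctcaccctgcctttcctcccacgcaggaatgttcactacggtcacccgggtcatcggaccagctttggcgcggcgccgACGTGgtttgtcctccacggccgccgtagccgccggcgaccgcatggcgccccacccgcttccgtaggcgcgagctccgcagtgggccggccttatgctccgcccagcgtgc
Atp5g3: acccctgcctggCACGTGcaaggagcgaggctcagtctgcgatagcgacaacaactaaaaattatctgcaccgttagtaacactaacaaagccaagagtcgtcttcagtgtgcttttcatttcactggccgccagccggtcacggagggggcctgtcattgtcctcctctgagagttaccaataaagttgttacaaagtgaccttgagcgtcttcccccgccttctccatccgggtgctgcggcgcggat
The ETS match of Uqcrh ended 4 bases before the start and that of Cox6a1 10 bases before it. The NRF1 matches of Cox6a1 ended 153 and 108 bases before the start, and the NRF1 match of Atp5g3 lies from base 13 to base 22 after the start, outside the stretch shown. The HIF match of Cox5a ended 108 bases before the start. A match is a description of letters and not of a bound site.

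In complex III, the redox subunits are cytochrome b, which is encoded in mitochondria, cytochrome c1 (Cyc1) and the Rieske iron-sulfur protein (Uqcrfs1). Cyc1 (chromosome 15, 76343523 to 76346260, plus strand) had a log2 fold change of -1.30 ± 0.59 (SE) and Uqcrfs1 (chromosome 13, 30540308 to 30545362, minus strand) one of -1.89 ± 0.91 (SE). The core proteins Uqcrc1 and Uqcrc2 form the large part of the complex that reaches into the matrix. Uqcrc1 (chromosome 9, 108936633 to 108949623, plus strand) had 112 and 46.4 CPM in Hif1a-cKO and 110.4, 199 and 241 CPM as lowest, median and highest in Hif1a-WT. Hif1a-cKO replicate 1 was thus just above the lowest Hif1a-WT library and replicate 2 below all of them (log2 fold change -1.21 ± 0.52, SE; edgeR adjusted p = 0.382). Uqcrc2 was at -1.11 ± 0.64 (SE). Without Hif1a-cKO replicate 2, Uqcrc1 was at -0.79, Uqcrc2 at -0.49 and Uqcrfs1 at -1.28.

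Among the small complex III subunits, Uqcr10 (chromosome 11, 4701973 to 4704342, minus strand), which lies next to the Rieske protein and cytochrome c1, showed the lowest fold change. It had 127 and 20.5 CPM in Hif1a-cKO and 163, 414 and 495 CPM as lowest, median and highest in Hif1a-WT. Both Hif1a-cKO libraries were below all Hif1a-WT libraries, with replicate 1 closest to Hif1a-WT replicate 1. The means were 73.7 ± 75.2 CPM (SD, n = 2) in Hif1a-cKO and 372 ± 119 CPM (SD, n = 6) in Hif1a-WT. Expressed as a log2 fold change this was -2.31 ± 0.70 (SE), with edgeR adjusted p = 0.369, and adjusted p = 0.0104 in DESeq2. It was -1.61 without Hif1a-cKO replicate 2. Uqcrh (chromosome 4, 116066965 to 116075071, minus strand), the hinge protein that helps cytochrome c1 meet cytochrome c, had 109 and 20.5 CPM in Hif1a-cKO and 50.6, 260.3 and 469 CPM in Hif1a-WT. The groups overlapped, as Hif1a-WT replicate 1 was below Hif1a-cKO replicate 1 (log2 fold change -2.07 ± 0.82, SE; edgeR adjusted p = 0.376).

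Uqcrq (chromosome 11, 53427922 to 53430831, minus strand), a small subunit near the site where ubiquinone binds, was the complex III member with the highest mean TPM. It had 687 and 161 CPM in Hif1a-cKO and 373, 524 and 1235 CPM in Hif1a-WT. Hif1a-cKO replicate 1 was above the Hif1a-WT median, and the log2 fold change was -0.59 ± 0.63 (SE; adjusted p = 0.714 in edgeR), and 0.061 without Hif1a-cKO replicate 2. Uqcrb, which also lies near the ubiquinone site, and Uqcr11, a small membrane subunit, were at -0.91 ± 0.61 and -0.98 ± 0.66 (SE), and at -0.34 and -0.25 without Hif1a-cKO replicate 2. Uqcrq was at -0.27 without Hif1a-WT replicate 2, and Uqcrb turned to 0.13 and Uqcrfs1 to 0.23 with detected genes as a covariate. Within complex III the fold change thus ran from -2.31 for Uqcr10 to -0.59 for Uqcrq, and the SE of each was from 0.52 to 0.91.

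In complex IV the catalytic core is encoded in mitochondria, and the nuclear subunits surround it. Cox5a (chromosome 9, 57521274 to 57532426, plus strand), a matrix-side subunit, had 23.9 and 4.10 CPM in Hif1a-cKO and 28.6, 196 and 374 CPM as lowest, median and highest in Hif1a-WT. All Hif1a-WT libraries were above both Hif1a-cKO libraries, although Hif1a-WT replicate 1 was close to Hif1a-cKO replicate 1. The log2 fold change was -3.70 ± 1.03 (SE), with an edgeR adjusted p = 0.369 and a DESeq2 adjusted p = 0.00267. The value in Hif1a-cKO rests on 50 reads in all, of which 3 were in replicate 2. Cox5b (chromosome 1, 36691449 to 36693681, plus strand), its zinc-binding partner on the matrix side, was at -0.73 ± 0.64 (SE), -0.018 without Hif1a-cKO replicate 2 and -0.46 without Hif1a-WT replicate 2.

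Cox8a (chromosome 19, 7215153 to 7217616, minus strand), the form of a small membrane subunit used in most tissues, had 144 and 56.0 CPM in Hif1a-cKO and 188, 544 and 691 CPM in Hif1a-WT. Both Hif1a-cKO libraries were below all Hif1a-WT libraries. The means were 100.1 ± 62.3 CPM (SD, n = 2) in Hif1a-cKO and 513 ± 188 CPM (SD, n = 6) in Hif1a-WT. Expressed as a log2 fold change this was -2.35 ± 0.64 (SE), with edgeR adjusted p = 0.369, and adjusted p = 0.00355 in DESeq2. The other forms of this subunit, Cox8b of muscle and Cox8c of testis, were not tested: Cox8b had no read in any library, and Cox8c had 2 reads in Hif1a-cKO.

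Cox4i1 and Cox4i2 are alternative forms of the subunit by which ATP regulates complex IV, and Cox4i2 is the form known from lung and from low oxygen. Cox4i1 (chromosome 8, 120668222 to 120674207, plus strand) had 806 and 154 CPM in Hif1a-cKO and 575, 1003 and 1414 CPM in Hif1a-WT, with overlap (log2 fold change -1.04 ± 0.65, SE; edgeR adjusted p = 0.518). Cox4i2 (chromosome 2, 152754173 to 152765037, plus strand) had 5.58 and 6.83 CPM in Hif1a-cKO and 0, 10.3 and 112 CPM in Hif1a-WT. The highest value was in Hif1a-WT replicate 3, the other 5 were at most 18.1 CPM, and replicate 1 had no read, which allows up to 1.88 CPM before TMM scaling. Its log2 fold change was -2.12 ± 1.45 (SE; edgeR adjusted p = 0.554), from 16 reads in Hif1a-cKO. It was -0.56 without Hif1a-WT replicate 3, 0.43 among the libraries numbered 1 and 2, and Cox4i1 was at -0.36 without Hif1a-cKO replicate 2. On the TPM scale, which allows levels of different genes to be compared, Cox4i2 averaged 10.9 ± 3.92 TPM in Hif1a-cKO and 50.6 ± 86.5 TPM in Hif1a-WT, and Cox4i1 averaged 1021 ± 718 TPM in Hif1a-cKO and 1732 ± 181 TPM in Hif1a-WT (SD, n = 2 and 6). Cox4i1 was the major form in both groups.

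For subunit VIa, the general form Cox6a1 (chromosome 5, 115345642 to 115348981, minus strand) had 610.5 and 69.7 CPM in Hif1a-cKO and 292, 799 and 1193 CPM in Hif1a-WT. Its groups overlapped, with Hif1a-cKO replicate 1 within the Hif1a-WT range (log2 fold change -1.20 ± 0.75, SE; edgeR adjusted p = 0.516). The muscle form Cox6a2 had no read in either Hif1a-cKO library, which allows up to 1.46 CPM in replicate 1 and 4.61 CPM in replicate 2 before TMM scaling, and at most 7.65 CPM in Hif1a-WT. Cox6b1 (chromosome 7, 30616861 to 30626151, minus strand), a subunit on the side where cytochrome c docks, had 501 and 109 CPM in Hif1a-cKO and 370.4, 482 and 918 CPM in Hif1a-WT. One Hif1a-cKO library was above the Hif1a-WT median and the other below all Hif1a-WT libraries (log2 fold change -0.81 ± 0.60, SE; edgeR adjusted p = 0.583). The testis form Cox6b2 (chromosome 7, 4751792 to 4753094, minus strand) had 28.4 and 12.3 CPM in Hif1a-cKO and 4.29, 16.2 and 42.4 CPM in Hif1a-WT. It was the only tested member with a fold change above 0, at 0.16 ± 0.73 (SE; edgeR adjusted p = 0.942), and its sign turned with an effective length offset and without Hif1a-cKO replicate 1. Without Hif1a-cKO replicate 2, Cox6a1 was at -0.42, Cox6b1 at -0.15 and Cox6b2 at 0.57, and without Hif1a-WT replicates 2 and 3, left out in turn, Cox6b2 was at 0.61 and 0.028.

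For subunit VIIa, the general form Cox7a2 (chromosome 9, 79755361 to 79759878, minus strand) had 98.4 and 12.3 CPM in Hif1a-cKO and 82.4, 351 and 406 CPM in Hif1a-WT. Hif1a-WT replicate 1 alone overlapped with Hif1a-cKO (log2 fold change -2.42 ± 0.79, SE; adjusted p of 0.369 in edgeR and 0.0204 in DESeq2). Cox7a2l (chromosome 17, 83501918 to 83517330, minus strand), a related protein known to join complex III and complex IV in a supercomplex, had 55.3 and 21.9 CPM in Hif1a-cKO and 36.3, 221 and 366 CPM in Hif1a-WT, again with Hif1a-WT replicate 1 as the library of overlap (log2 fold change -2.46 ± 0.83, SE; adjusted p of 0.369 in edgeR and 0.0282 in DESeq2). The muscle form Cox7a1 had 3.04 and 4.10 CPM in Hif1a-cKO and from 2.20 to 8.47 CPM in Hif1a-WT, on 9 reads in Hif1a-cKO (log2 fold change -0.60 ± 1.08, SE; edgeR adjusted p = 0.843). Cox7a2 averaged 130.5 ± 113 TPM in Hif1a-cKO and 597 ± 229 TPM in Hif1a-WT, and Cox7a1 18.2 ± 7.71 TPM in Hif1a-cKO and 22.4 ± 11.5 TPM in Hif1a-WT (SD, n = 2 and 6). Of the remaining small subunits, Cox7b was at -1.80 ± 0.70, Cox6c at -1.21 ± 0.64 and Cox7c at -0.35 ± 0.61 on the log2 scale (SE). Without Hif1a-cKO replicate 2 these were -1.09, -0.57 and 0.27, and Cox7c was at 0.034 without Hif1a-WT replicate 2, so that its sign rests on single libraries. Cox7a1 was at -0.38, -0.37 and -0.31 without Hif1a-WT replicates 2, 3 and 6 in turn. Cox7b2, the testis form of Cox7b, had 5 reads in Hif1a-cKO and was not tested. Within complex IV the fold changes spread more widely than in the other complexes, from -3.70 for Cox5a to 0.16 for Cox6b2 with Cox6a2 left aside. Cox5a, Cox7a2, Cox7a2l and Cox8a were below -2, as was Cox4i2 while Hif1a-WT replicate 3 was kept, and Cox5b, Cox6b1, Cox6b2, Cox7a1 and Cox7c were above -1.

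ATP synthase joins a catalytic head on the matrix side, F1, to a rotor and a peripheral stalk in the membrane part, Fo. In F1, the catalytic beta subunit Atp5b (chromosome 10, 128083273 to 128090391, plus strand) had 239.5 and 109 CPM in Hif1a-cKO and 221, 858 and 1511 CPM in Hif1a-WT. Hif1a-WT replicate 1 alone lay between the Hif1a-cKO values. The means were 174 ± 92.1 CPM (SD, n = 2) in Hif1a-cKO and 867 ± 524 CPM (SD, n = 6) in Hif1a-WT. Expressed as a log2 fold change this was -2.31 ± 0.79 (SE), with edgeR adjusted p = 0.369, and adjusted p = 0.0238 in DESeq2. The alpha subunit Atp5a1 was at -2.16 ± 0.76 (SE; edgeR adjusted p = 0.369, DESeq2 adjusted p = 0.0396). In the central stalk, gamma (Atp5c1) was at -1.58 ± 0.68, delta (Atp5d) at -1.39 ± 0.64 and epsilon (Atp5e) at -1.10 ± 0.61 (SE). Atp5e (chromosome 2, 174461072 to 174464105, minus strand) had the highest mean TPM of the ATP synthase genes. It had 484 and 139 CPM in Hif1a-cKO and 401, 598 and 1243 CPM in Hif1a-WT, with Hif1a-cKO replicate 1 inside the Hif1a-WT range (edgeR adjusted p = 0.475). Without Hif1a-cKO replicate 2, gamma was at -0.97, delta at -0.73 and epsilon at -0.51.

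In the peripheral stalk, which keeps the head from turning, Atp5f1 (chromosome 3, 105942698 to 105960099, minus strand) encodes subunit b. It had 22.8 and 17.8 CPM in Hif1a-cKO and 32.4, 172 and 380.2 CPM in Hif1a-WT. Both Hif1a-cKO libraries were close together and below all Hif1a-WT libraries, where replicates 1, 2 and 3 had 32.4, 68.9 and 69.8 CPM and replicates 4 to 6 at least 275 CPM. The means were 20.3 ± 3.59 CPM (SD, n = 2) in Hif1a-cKO and 189.6 ± 149.7 CPM (SD, n = 6) in Hif1a-WT. Expressed as a log2 fold change this was -3.21 ± 0.96 (SE), with edgeR adjusted p = 0.369, and adjusted p = 0.0104 in DESeq2. It was -3.14 without Hif1a-cKO replicate 2 and -1.20 among the libraries numbered 1 and 2. Its exons overlap those of Wdr77 on the other strand, and reads of the 2 genes there cannot be told apart. The other stalk subunits were at -1.68 ± 0.72 for Atp5j (F6, whose exons overlap those of Gabpa), -1.34 ± 0.66 for Atp5o (OSCP) and -1.02 ± 0.60 for Atp5h (subunit d) (SE), and at -1.04, -0.71 and -0.39 without Hif1a-cKO replicate 2.

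The rotor ring is built from subunit c, and Atp5g1, Atp5g2 and Atp5g3 encode precursors of the same mature protein. Atp5g3 (chromosome 2, 73908447 to 73911326, minus strand) had 91.3 and 24.6 CPM in Hif1a-cKO and 75.8, 253 and 431 CPM in Hif1a-WT. Hif1a-WT replicate 1 was the only library of overlap (log2 fold change -2.20 ± 0.73, SE; adjusted p of 0.369 in edgeR and 0.0275 in DESeq2). Atp5g1 (chromosome 11, 96068852 to 96075670, minus strand) had 415 and 45.1 CPM in Hif1a-cKO and 297, 363 and 1024 CPM in Hif1a-WT. One Hif1a-cKO library was above the Hif1a-WT median and the other far below all Hif1a-WT libraries (log2 fold change -1.03 ± 0.75, SE; edgeR adjusted p = 0.574). Atp5g2 (chromosome 15, 102662864 to 102672352, minus strand) had 106 and 25.95 CPM in Hif1a-cKO and 39.6, 206 and 231 CPM in Hif1a-WT, with overlap (log2 fold change -1.41 ± 0.68, SE; edgeR adjusted p = 0.4205). On the TPM scale Atp5g1 averaged 392.4 ± 437 in Hif1a-cKO and 868 ± 348 in Hif1a-WT, Atp5g3 93.5 ± 60.8 in Hif1a-cKO and 460.4 ± 234 in Hif1a-WT, and Atp5g2 102 ± 72.9 in Hif1a-cKO and 291 ± 115 in Hif1a-WT (SD, n = 2 and 6). Without Hif1a-cKO replicate 2, the log2 fold change of Atp5g1 was -0.23 and that of Atp5g2 -0.81, and without Hif1a-WT replicate 2 that of Atp5g1 was -0.64. How reads of near-identical stretches were shared among these genes is set by the authors' quantification.

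Of the small membrane subunits of Fo, Atp5l (g) was at -1.51 ± 0.66, Atp5k (e) at -1.22 ± 0.57 and Atp5j2 (f) at -1.10 ± 0.72 (SE), and at -1.09, -0.65 and -0.31 without Hif1a-cKO replicate 2. Atp5s, which encodes a factor that couples the proton flow, was the member of this complex nearest to 0, at -0.25 ± 0.75 (SE), 0.35 without Hif1a-cKO replicate 2 and 0.016 without Hif1a-WT replicate 6. The lowest fold changes in ATP synthase were thus in subunit b, in both subunits of the catalytic head and in Atp5g3.

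The subunits that the mitochondrial genome adds to the same complexes lay in the other direction. Their level summed to 17457 and 17477 CPM in Hif1a-cKO and from 2239 to 8703 CPM in Hif1a-WT for complex III (mt-Cytb), to 46636 and 49851 CPM in Hif1a-cKO and from 5613 to 22057 CPM in Hif1a-WT for complex IV (mt-Co1, mt-Co2 and mt-Co3), and to 3382 and 4218 CPM in Hif1a-cKO and from 406 to 3232 CPM in Hif1a-WT for ATP synthase (mt-Atp6 and mt-Atp8). In each complex the groups did not overlap. Of the 6 genes, 5 were higher in Hif1a-cKO with no overlap, against 6.02% of all genes, and the exception was mt-Atp8. The smallest p was that of mt-Co1, the subunit that reduces oxygen, at 27332 ± 2365 CPM in Hif1a-cKO (SD, n = 2) and 5776 ± 2844 CPM in Hif1a-WT (SD, n = 6). Expressed as a log2 fold change this was 2.24 ± 0.71 (SE), with edgeR adjusted p = 0.369, and adjusted p = 0.00541 in DESeq2. The other subunits encoded beside it, mt-Co2 and mt-Co3, had 7766 and 7834 CPM and 13210.3 and 13012 CPM in Hif1a-cKO, against 1754 to 5698 CPM and 2199.8 to 7687 CPM in Hif1a-WT, and mt-Atp6, the subunit that forms the proton path with the ring, had 3311 and 3965 CPM in Hif1a-cKO and from 369 to 3204 CPM in Hif1a-WT. The log2 ratio of mitochondrial over nuclear sums was 3.24 and 5.24 in Hif1a-cKO and lay between -0.40 and 1.88 in Hif1a-WT for complex III. It was 3.50 and 5.84 in Hif1a-cKO and lay between 0.31 and 2.46 in Hif1a-WT for complex IV. For ATP synthase it was -0.17 and 2.22 in Hif1a-cKO and lay between -4.01 and -1.03 in Hif1a-WT. All 3 ratios were higher in both Hif1a-cKO libraries than in any Hif1a-WT library. Removing the mitochondrial genome genes before scaling left the nuclear medians at -1.21, -1.21 and -1.40.

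**Figure D4:**
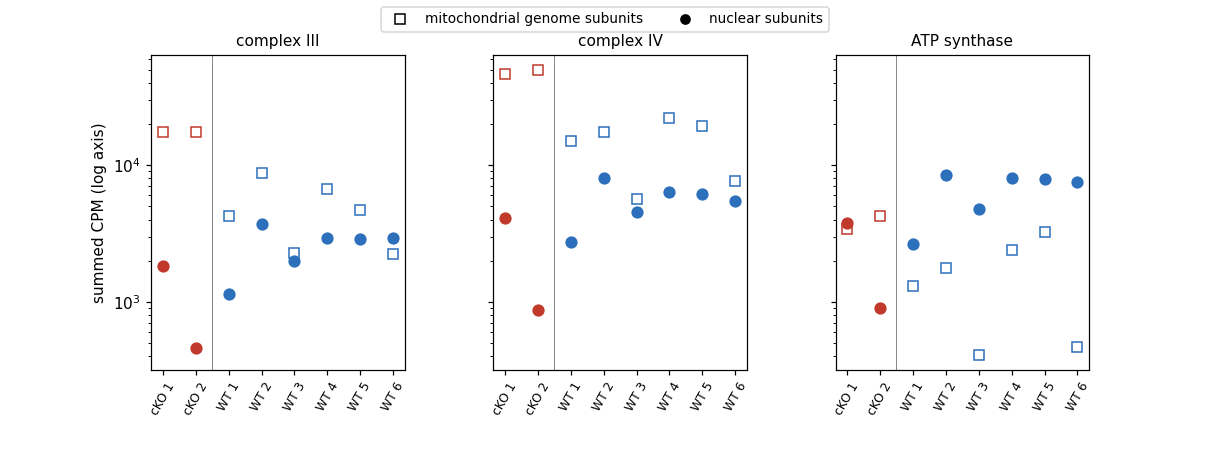
Summed CPM (log axis) of the nuclear subunit genes (filled circles) and of the subunit genes in the mitochondrial genome (open squares) in each library, for complex III, complex IV and ATP synthase; Hif1a-cKO libraries are left of the vertical line and Hif1a-WT libraries right of it. Squares are higher in both Hif1a-cKO libraries than in any Hif1a-WT library, and the circle of Hif1a-cKO replicate 2 is the lowest in each panel.

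Most assembly factors of the complexes were lower too, where 52.7% of all genes tested were lower. Their medians lay between those of the subunits and that of all genes, and no test was made of that difference. For complex III, 4 of 5 tested factors were lower, their median was -0.67 on the log2 scale, and Uqcc3, which stabilises cytochrome b, was lower with no overlap (46.2 and 23.2 CPM in Hif1a-cKO and from 50.7 to 110.4 CPM in Hif1a-WT; log2 fold change -0.98 ± 0.47, SE; edgeR adjusted p = 0.422). For complex IV, 19 of 24 were lower, with a median of -0.73. The smallest p there was that of Higd2a, with 20.8 and 10.9 CPM in Hif1a-cKO and 13.2, 83.4 and 119 CPM in Hif1a-WT (log2 fold change -2.30 ± 0.73, SE; adjusted p of 0.369 in edgeR and 0.0400 in DESeq2). Cox16, Coa6 and Cmc1, all needed to build complex IV, were lower with no overlap. These are 3 of 24 tested, beside 1 of 5 for complex III and 0 of 4 for ATP synthase, against 6.41% of all genes. Cox16 had 21.8 and 25.95 CPM in Hif1a-cKO and from 29.2 to 53.0 CPM in Hif1a-WT (log2 fold change -0.86 ± 0.45, SE), and Coa6 had 16.7 and 9.56 CPM in Hif1a-cKO and from 22.6 to 39.9 CPM in Hif1a-WT (-1.07 ± 0.53, SE). Cmc1 had 18.8 and 0 CPM in Hif1a-cKO and from 19.9 to 32.2 CPM in Hif1a-WT (-1.21 ± 0.83, SE). All 4 ATP synthase assembly and inhibitor genes were lower, with a median of -0.59 and the ATPase inhibitor Atpif1 at -1.81 ± 0.67 (SE; edgeR adjusted p = 0.369). Ndufa4, which was long listed in complex I and is found with complex IV, had 25.9 and 8.20 CPM in Hif1a-cKO and 21.4, 171 and 264 CPM in Hif1a-WT (log2 fold change -3.09 ± 0.88, SE; adjusted p of 0.369 in edgeR and 0.00732 in DESeq2).

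Of 10 regulators of respiratory chain genes tested, Hif1a among them, 6 were lower and 4 higher, where 52.7% of all genes were lower. Gabpa, a subunit of the ETS factor GABP, had 7.61 and 17.8 CPM in Hif1a-cKO and from 18.7 to 31.0 CPM in Hif1a-WT (log2 fold change -1.02 ± 0.58, SE; edgeR adjusted p = 0.478), and Yy1 had 19.8 and 17.8 CPM in Hif1a-cKO and from 21.4 to 59.3 CPM in Hif1a-WT (-1.10 ± 0.51, SE; edgeR adjusted p = 0.406). Both were lower with no overlap between the groups. Exons of Gabpa overlap those of Atp5j on the other strand, and reads of both genes there cannot be told apart. Ppargc1a, a coactivator of mitochondrial biogenesis, was higher with no overlap, at 9.13 and 15.03 CPM in Hif1a-cKO and from 1.17 to 5.74 CPM in Hif1a-WT (2.22 ± 0.96, SE; edgeR adjusted p = 0.386). Nrf1 was at -0.47 ± 0.49 (SE), with overlap. Of the 10, 3 were lower with no overlap, Hif1a among them, against 6.41% of all genes. Only 1 was higher with no overlap, against 6.02% of all genes.

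Most members are short transcripts, and length was examined because amplified libraries can differ in how many reads fall on short transcripts. The deposited length of a gene was below its shortest annotated transcript for 31 of 43 members (72.1%), against 23.4% of the 14938 tested genes found in the annotation. Uqcr10 had a deposited length of 146 bases, while its shortest annotated transcript has 389 and its median coding transcript 434. Multiplied by its 3 annotated transcripts, the deposited length gave 437 bases. For Atp5e the deposited 141 bases times 3 transcripts gave 423, beside a median coding transcript of 421 bases. For Cox6a1, 286 bases times 2 gave 572, beside 571. Among the 38 members with more than 1 annotated transcript, the deposited length lay within the annotated range for 5, and its product with the transcript number for 23. This is no general rule, as these shares were 58.7% and 47.0% of the 13049 tested genes with more than 1 transcript. TPM times effective length over reads was 0.333 of the value of single-transcript genes for Uqcr10 in Hif1a-cKO replicate 1, so its TPM was not computed from the short length. TPM, and not the deposited length, was therefore used to compare levels between genes.

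Within classes of annotated coding length, the members' median lay below that of all genes in the class. For transcripts under 500 bases the median log2 fold change was -1.04 over 8 members and -0.29 over 224 genes. It was -1.30 over 23 members and -0.55 over 2212 genes from 500 to 1000 bases, and -1.89 over 7 members and -0.30 over 3778 genes from 1000 to 2000 bases. Across all genes the longest class was the highest, at 0.26 over 2723 genes of 4000 bases or more. By deposited effective length, 37 of the 40 lay under 500 bases, with a median of -1.22 against -0.27 over 5523 genes. By level, 34 members lay between a mean of 100 and 1000 CPM, where their median was -1.32 against -0.45 over 1743 genes, of which 67.4% were lower and 19.3% had an unadjusted p under 0.05 with a lower level. With the effective length of each library as an offset in edgeR, 40 of 40 members were lower, against 7827 of 15102 genes. The medians were then -1.22 for complex III, -1.25 for complex IV and -1.29 for ATP synthase, against -0.05 over all genes. This offset and the classes of effective length rest on the deposited lengths, which for 31 of 43 members lay below the shortest annotated transcript. The effective length could also differ between libraries, as for Atp5l, with 108 and 309 bases in Hif1a-cKO replicates 1 and 2. Across the 40 members, which share the 8 libraries, the fold change and the annotated coding length had a Pearson correlation of -0.16 and a Spearman correlation of -0.40. The part of transcript length in the members' fold changes was not tested.

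**Figure D5:**
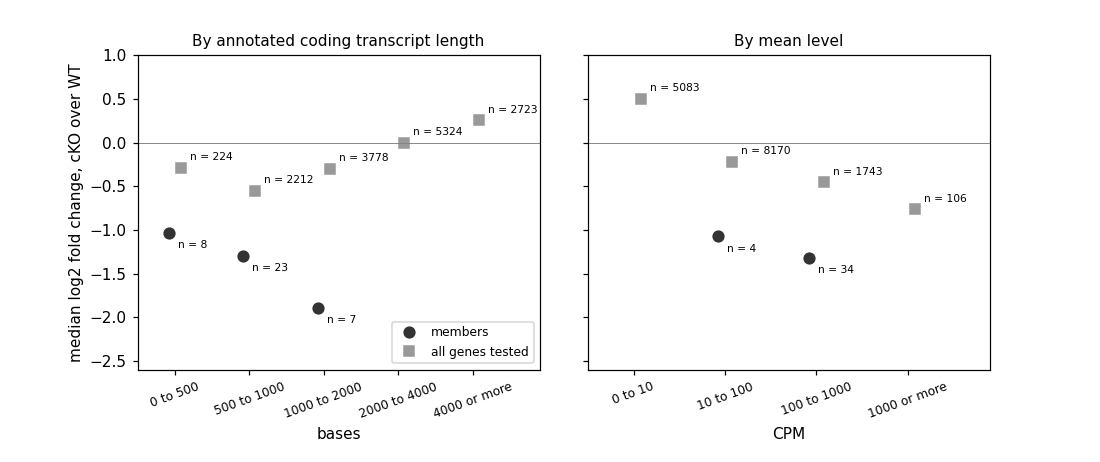
Median log2 fold change of Hif1a-cKO over Hif1a-WT in classes of annotated coding transcript length (left, bases) and of mean level (right, CPM), for members (circles) and for all genes tested (squares), with the number of genes beside each point. Classes with fewer than 3 members show no circle. The circles lie below the squares in each class shown.

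The members lie on 18 chromosomes, and 13 of the 43 have an exon that overlaps another gene. The 7 pseudogene names left out had at most 5 reads in any library.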

How the data were processed

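Granulosa cell RNA of 8 libraries was analysed, grouped by sample title. The authors deposited 1 table per library with estimated counts, TPM and transcript lengths (other values, in bases) for each gene. Per the submitters' processing notes, HISAT2 and Salmon were used with mm10; versions and annotation are not given in the sources used here. Rows that carry only a transcript identifier (1548 rows, from 0.435% to 0.739% of reads) were left out. Estimated counts were rounded, filtered with filterByExpr (minimum count 10, minimum total 15; 15102 genes left), scaled by TMM and compared with edgeR 4.0.16 (glmQLFit, glmQLFTest, R 4.3.3) with Benjamini-Hochberg adjustment over all genes and a threshold of 0.05. The SE was derived from the F statistic. DESeq2 1.42.0, limma 3.58.1 on log2(TPM + 1), limma-voom with quality weights, other scalings and filters, an effective length offset, a detected-gene covariate, a replicate block and leaving out each library were alternatives. Classes of annotated length and of level, unlike those of effective length, were added after the values were seen. On simulated data of this comparison, with 15102 genes, calls were made for 12.1% of genes given a 4-fold change and 66.7% of genes given a 16-fold change, beside 1 false call.

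Members, lists, markers and motifs were chosen with earlier results of these data known. Values per library are given for the 3 members with the smallest p and the one with the highest mean TPM in each complex, for members above 0 and for isoform families; of the other lists, for the smallest p and for genes whose groups do not overlap. Gene positions are from GENCODE M21 on GRCm38, the assembly mm10 denotes. For a gene without reads the limit was set at 3 reads, from 0.636 to 4.61 CPM per library; this covers counting error only. No pair of libraries within a group agreed within sampling noise (chi-square per degree of freedom from 13.2 to 84.6). A blood marker list (4 of 5 tested, 3 higher) summed to 240.5 and 39.6 CPM in Hif1a-cKO and from 12.2 to 218 CPM in Hif1a-WT, and a theca list (4 tested, 2 higher) to 215 and 64.2 CPM in Hif1a-cKO and from 15.9 to 347 CPM in Hif1a-WT.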

Additional observations from a re-analysis of the deposited data

Results flagged for a closer look

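In 4 of 26 groups of Hif1a-WT values examined, 1 library stood apart from the other 5 by a gap of more than 0.625 of the whole range; by chance about 1 in 20 groups is picked out in this way. Atp5e had 1242.67 CPM in Hif1a-WT replicate 2 and at most 663 CPM in the others. Cox6b1 had 918.469 CPM and Atp5g1 1023.98 CPM in the same library, with at most 524 and 491 CPM in the others. Cox4i2 had 111.918 CPM in Hif1a-WT replicate 3 and at most 18.1 CPM in the others.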

How the results depend on the processing

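The edgeR test called 0 genes and 0 members. DESeq2 called 253 of 6646 genes and 9 of 35 members. Without a filter edgeR called 478 of 25322 genes, 405 of them lower. That fit called 12 of 42 members, all lower (the 9 of DESeq2 with Uqcrfs1, Uqcrh and Cox7b). With limma on log2(TPM + 1), 5 of 15102 genes and 0 of 40 members were called. The cause of these differences was not tested. Leaving out each library gave from 0 to 1 genes and 0 members. The median log2 fold change then ran from -2.62 to -0.79 for complex III, from -2.74 to -0.85 for complex IV and from -3.02 to -0.77 for ATP synthase, and the log2 ratio of summed CPM from -2.49 to -0.50, from -2.67 to -0.43 and from -2.86 to -0.79. The extremes came from leaving out Hif1a-cKO replicate 1 or 2, where the lone library is assumed to vary like the Hif1a-WT libraries. The median of all genes was -0.27 without Hif1a-cKO replicate 1 and -0.34 without Hif1a-cKO replicate 2. With detected genes as a covariate the medians were -0.29, -0.55 and -0.55, against -0.26 over all genes. DESeq2's size factors moved the median of all genes to 0.05. The replicate block called 1 gene and 0 members, with medians of -0.98, -1.35 and -1.28. The labels do not say that replicate numbers pair libraries. Deviations of same-numbered libraries correlated at -0.30 and -0.17. With 2 Hif1a-cKO libraries their deviations mirror each other, so these correlations cannot decide whether numbers pair libraries. Signs turned for Cox6b2 with an effective length offset (-0.0073), in the libraries numbered 1 and 2 (-0.49), under the replicate block (-0.58) and without Hif1a-cKO replicate 1 (-0.65; leaving out each library gave from -0.65 to 0.61), for Cox4i2 in the libraries numbered 1 and 2 (0.43) and under the block (1.21), and for Uqcrq without Hif1a-cKO replicate 2 (0.061; from -2.05 to 0.061). Signs also turned for Cox7c (0.27 without Hif1a-cKO replicate 2, 0.034 without Hif1a-WT replicate 2), Atp5s (0.35 without Hif1a-cKO replicate 2, 0.016 without Hif1a-WT replicate 6, 0.40 in the libraries numbered 1 and 2, 0.16 under the block), Uqcrb and Uqcrfs1 (0.13 and 0.23 with the covariate) and Cox6a2 (0.31 with limma-voom). In the other alternatives the tested members kept their sign, and members were called only by DESeq2 and without a filter. Depth limits Cox5a, Atp5f1, Cox4i2, Cox6a2, Cox6b2, Cox7a1 and Atp5s, each with under 70 reads in Hif1a-cKO. Other members also had few reads in Hif1a-cKO replicate 2, among them Uqcrfs1 and Cox7b with 6 each. Cox7a2 had 9 reads there, and Uqcr10 and Uqcrh had 15 each.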
